A study of Mus musculus with 16 samples.

Results

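UDP-glucuronosyltransferases join glucuronic acid to bilirubin, steroids, bile acids and drugs, so that these can leave the liver in bile or blood. The genes were taken from the deposited mouse liver table by symbol, as Ugt1a1, Ugt1a5, Ugt1a6a, Ugt1a6b, Ugt1a9, Ugt2b1, Ugt2b5, Ugt2b34, Ugt2b35 and Ugt2b36. These 10 symbols matched 11 of 24082 Ensembl genes, because 1 gene (ENSMUSG00000090124) was listed both as Ugt1a6a and as Ugt1a7c. It is called Ugt1a7c here, as in the GENCODE vM21 annotation. All 11 genes passed the filter on low values and were among the 12522 genes tested.

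Liver RNA came from 16 female C57Bl6/J mice aged 9 to 11 weeks, with 4 mice in each of 4 groups. All mice received Lieber-DeCarli liquid diets. Ethanol-fed mice (EtOH) received ethanol that rose from 1% to 6% vol/vol over 25 days, and pair-fed mice (Pair) received the same calories with maltose dextrin in its place. Within each diet, IMC mice also received iodomethylcholine at 0.06% wt/wt of the diet, which inhibits the bacterial enzyme that makes trimethylamine from choline, and control mice are labelled as vehicle-treated. The study states that mice given both IMC and ethanol ate less and weighed less, and it also marks a difference in body weight between pair-fed mice with and without IMC. Intake or body weight and IMC therefore cannot be told apart in either diet. The libraries held 9632659 to 12601199 reads on genes. Levels are normalized counts, that is, reads divided by a size factor per library, rescaled over all 16 libraries. A gene passed the test where the limma adjusted p-value was under 0.05. The library numbers up to 8 belonged to the Pair IMC and EtOH control groups, and those from 9 on to the other groups. A comparison of IMC with control within a diet, of ethanol with pair feeding within a treatment, and the difference of the IMC effects between diets therefore cannot be told apart from early and late library numbers. The IMC effect averaged over both diets and the ethanol effect averaged over both treatments are balanced over early and late numbers. All ethanol-fed libraries have odd and all pair-fed libraries even numbers, so that ethanol and odd numbers cannot be told apart. Whether the numbers mark a step of the work is not stated.

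As a check of the tissue, the summed level of 6 hepatocyte markers lay between 887467 and 1724863 in the 16 libraries. It was 1038221 to 1724863 in Pair control and 1530780.1 to 1653698 in Pair IMC. In ethanol-fed mice it was 946162 to 1078271 in EtOH control and 887467 to 1168797 in EtOH IMC. The summed level of 6 kidney markers lay between 0 and 1.94. Of 6 pancreas markers, Cpa1, Pnlip and Cel had no read in any library. The summed level of 6 intestinal markers was 332 to 1433 in EtOH IMC, the widest range of the groups, and Cdx2 had no read. IMC lowered 1 of the hepatocyte markers, 1 of 3 tested intestinal and 1 of 2 tested lymphocyte markers in ethanol-fed mice. In pair-fed mice it lowered 1 of 6 bile duct markers and the 1 tested pancreas marker. Of 6 Kupffer cell and 6 endothelial markers 0 passed with IMC in either diet. Of 7 pericentral hepatocyte markers, IMC lowered 1 in pair-fed and 2 in ethanol-fed mice, where their sum was 49485 to 73467 against 73900.2 to 96192 in EtOH control. The pericentral list shares Cyp2e1 with the hepatocyte list, and Cyp1a2 with the indicator genes of AHR given below. Of 6 periportal markers IMC lowered 1 in ethanol-fed mice. Of 6 stellate cell markers 3 fell with IMC in ethanol-fed mice, and 3 rose with ethanol in control mice. With ethanol in control mice, 1 pericentral and 1 periportal marker also rose, and 1 intestinal marker fell. With ethanol in IMC mice, 2 pericentral, 1 periportal, 1 endothelial and 1 stellate cell marker rose. There 2 pericentral markers fell, and 1 each of the hepatocyte, periportal, stellate cell, lymphocyte and intestinal markers. Of all genes tested, 9.49% passed with IMC in pair-fed and 21.5% in ethanol-fed mice. With ethanol 11.9% passed in control and 16.5% in IMC mice. In bulk liver, fewer cells of a type and less RNA per cell cannot be told apart, and the part of these markers in the results below was not tested.

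In the mouse, the Ugt1a genes lie in 1 cluster on chromosome 1. Each has an own first exon, which encodes the part of the enzyme that binds the substrate, and all join it to the same 4 downstream exons, which encode the part that binds UDP-glucuronic acid. The Ugt2b genes are separate genes in a row on chromosome 5. On GRCm38 the genes span chr1:88070800-88218997 for Ugt1a9, chr1:88095062-88220002 for Ugt1a7c, chr1:88103252-88219003 for Ugt1a6b, chr1:88134809-88218997 for Ugt1a6a, chr1:88166012-88218997 for Ugt1a5 and chr1:88211959-88218997 for Ugt1a1, all on the plus strand. Of the others, Ugt2b34 spans chr5:86889767-86906937, Ugt2b1 chr5:86916638-86926530, Ugt2b36 chr5:87065927-87092555 and Ugt2b5 chr5:87124960-87140318, on the minus strand, and Ugt2b35 spans chr5:87000860-87013275 on the plus strand.

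**Figure D1:**
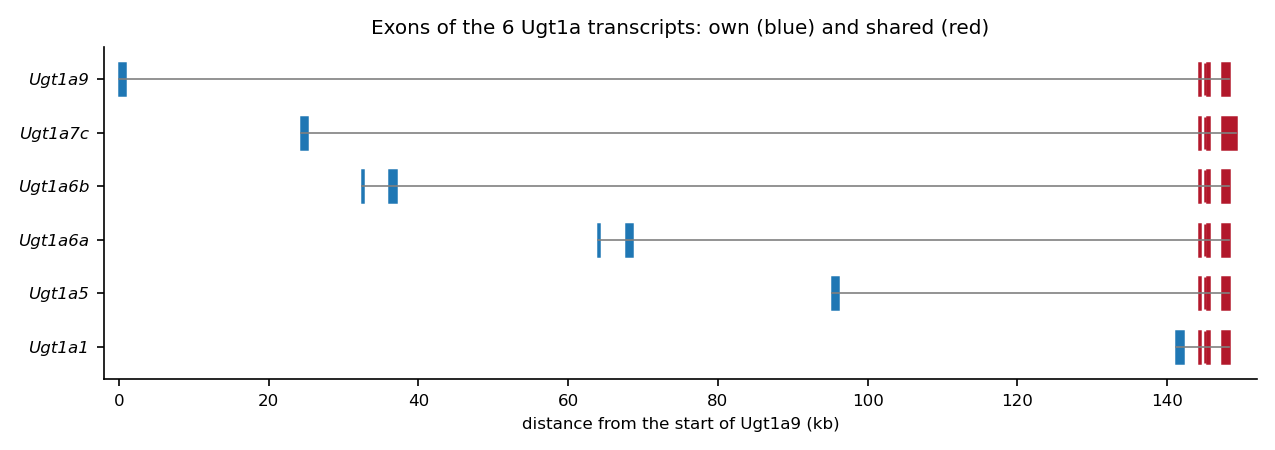
Exons of 1 transcript of each of the 6 Ugt1a genes against the distance in kb from the start of Ugt1a9. Blue boxes are exons before the junction and red boxes the exons that all 6 genes share. Ugt1a9 lies farthest from the shared exons and Ugt1a1 nearest.

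The junction of the own and the shared exons is shown because it decides which reads can be told apart. Each line holds the last 30 bases of the coding first exon in lower case and the first 30 bases of the shared second exon in capitals, from the GENCODE annotation of GRCm38.
Ugt1a1: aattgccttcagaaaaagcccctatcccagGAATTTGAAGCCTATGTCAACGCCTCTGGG
Ugt1a5: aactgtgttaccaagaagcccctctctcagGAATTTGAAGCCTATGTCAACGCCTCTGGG
Ugt1a6a: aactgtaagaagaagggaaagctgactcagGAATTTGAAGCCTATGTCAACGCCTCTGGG
Ugt1a6b: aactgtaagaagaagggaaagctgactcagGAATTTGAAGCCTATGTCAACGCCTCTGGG
Ugt1a7c: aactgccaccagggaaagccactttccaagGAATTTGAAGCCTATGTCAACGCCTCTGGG
Ugt1a9: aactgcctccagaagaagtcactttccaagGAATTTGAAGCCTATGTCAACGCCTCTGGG
The capitals were identical in all 6 genes, and the 735 coding bases from the junction on, without the stop codon, were the same. The own parts ended differently except in Ugt1a6a and Ugt1a6b, whose last 30 bases were the same and whose coding first exons were 97.0% identical. Between the other pairs of Ugt1a genes the identity of the coding first exons was 70.0% to 82.9%. Of all stretches of 100 bases in the transcript used, the length of a read, 57.2% in Ugt1a1, 63.1% in Ugt1a5, 58.5% in Ugt1a9, 71.5% in Ugt1a6b and 100% in Ugt1a6a occurred in a transcript of another Ugt gene. An annotated transcript of Ugt1a7c uses the coding first exon of Ugt1a6a. The values of Ugt1a6a, Ugt1a6b and Ugt1a7c are therefore uncertain. Ugt1a7c, which has the same 4 downstream exons as Ugt1a1, had 5 to 35 reads per library where Ugt1a1 had 2011 to 3902. Reads of the shared exons were thus not credited to each gene in turn. How they were assigned is not given in the sources used here.

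The Ugt2b genes share no exon. No stretch of 100 bases of Ugt2b1, Ugt2b35 or Ugt2b36 occurred in another Ugt transcript, and 0.407% of those of Ugt2b34 and 24.7% of those of Ugt2b5 did. Over the coding sequence Ugt2b5, Ugt2b35 and Ugt2b36 were 88.2% to 89.3% identical to each other, and Ugt2b1 and Ugt2b34 were 79.4% identical. The 60 bases before each start, from RefSeq promoters on GRCm38, are shown because IMC raised the level of Ugt2b5, Ugt2b35, Ugt2b36 and Ugt2b34 and lowered that of Ugt2b1, averaged over both diets. Capitals mark the nuclear receptor hexamer AGGTCA, searched on both strands.
Ugt2b5, chr5:87140341-87140400, minus strand: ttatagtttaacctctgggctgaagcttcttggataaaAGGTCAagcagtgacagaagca
Ugt2b36, chr5:87092556-87092615, minus strand: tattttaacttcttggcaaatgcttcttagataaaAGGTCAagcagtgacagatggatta
Ugt2b35, chr5:87000800-87000859, plus strand: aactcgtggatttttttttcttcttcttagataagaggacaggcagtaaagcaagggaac
Ugt2b34, chr5:86906938-86906997, minus strand: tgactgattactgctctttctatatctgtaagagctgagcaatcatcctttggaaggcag
Ugt2b1, chr5:86926504-86926563, minus strand: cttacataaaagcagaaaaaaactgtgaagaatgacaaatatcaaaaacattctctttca
Ugt2b5 and Ugt2b36 held the hexamer at -22 and -25, counted to its first base from the start. It was absent from these 60 bases in Ugt2b35, Ugt2b34 and Ugt2b1. Ugt2b35 held it farther up, at -215, and Ugt2b34 and Ugt2b1 had none in the 250 bases before the start. Promoters of 10 of the 11 genes were matched, Ugt1a6b being without an entry. In the 250 bases before the start the hexamer occurred in 5 of these 10 and in 14% of 32851 promoters. The same search found the AHR core GCGTG in 1 of 10 members (28.2% of all promoters), the antioxidant response element core TGANNNNGC in 4 (35.2%) and the HNF1 core GTTAAT in 3 (6.43%). A match is a description of the letters and not a site of binding.

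For Ugt1a5 and Ugt1a9, the pair of members whose IMC effect differed between diets, the whole 250 bases are given, with the letters of the 4 searched motifs in capitals on either strand.
Ugt1a5, chr1:88165762-88166011, plus strand: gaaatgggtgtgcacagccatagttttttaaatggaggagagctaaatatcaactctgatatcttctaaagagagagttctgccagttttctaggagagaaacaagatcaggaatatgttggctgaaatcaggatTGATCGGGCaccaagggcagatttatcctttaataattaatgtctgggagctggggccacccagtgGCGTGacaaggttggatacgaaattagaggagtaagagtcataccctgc
Ugt1a9, chr1:88070529-88070778, plus strand: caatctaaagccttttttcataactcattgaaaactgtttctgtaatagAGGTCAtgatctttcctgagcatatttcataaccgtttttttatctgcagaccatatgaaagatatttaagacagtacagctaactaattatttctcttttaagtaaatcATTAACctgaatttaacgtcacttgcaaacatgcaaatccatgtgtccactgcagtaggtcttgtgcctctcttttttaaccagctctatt
Ugt1a5 held the AHR core at -49 and the antioxidant response element core at -115. Ugt1a9 held neither, and had AGGTCA at -201 and the HNF1 core at -91.

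In Pair control, levels per kb of exon ordered the Ugt2b genes as Ugt2b36 at 3259 normalized counts per kb, Ugt2b5 at 3218, Ugt2b34 at 1409, Ugt2b1 at 945 and Ugt2b35 at 529.6. The mean counts behind them were 6709.9 ± 573 for Ugt2b36 and 5979.8 ± 1002 for Ugt2b5 (SD, n = 4), so these neighbours differed by less than the spread between mice. Per kb of exon sequence not shared with another gene, Ugt1a1, the main bilirubin-conjugating enzyme, stood highest of the Ugt1a genes at 2849.7 normalized counts per kb. It was followed by Ugt1a5 at 1412, Ugt1a9 at 444, Ugt1a6b at 288, Ugt1a6a at 129 and Ugt1a7c at 9.82. The mean counts of Ugt1a6b and Ugt1a6a were 269.7 and 277, so their order rests on the lengths used, 938 and 2142 bases. All stretches of 100 bases in the Ugt1a6a transcript used occurred in another Ugt transcript. Its value per kb is therefore not comparable with those of the other Ugt1a genes. How reads of shared exons were assigned is not known, so these values per kb are approximate. With EtOH IMC the order of the Ugt1a genes changed to Ugt1a1 at 3218, Ugt1a9 at 1254, Ugt1a6b at 394 and Ugt1a5 at 188. Ugt2b35 at 1895 per kb of exon then stood above Ugt2b1 at 971.

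**Figure D2:**
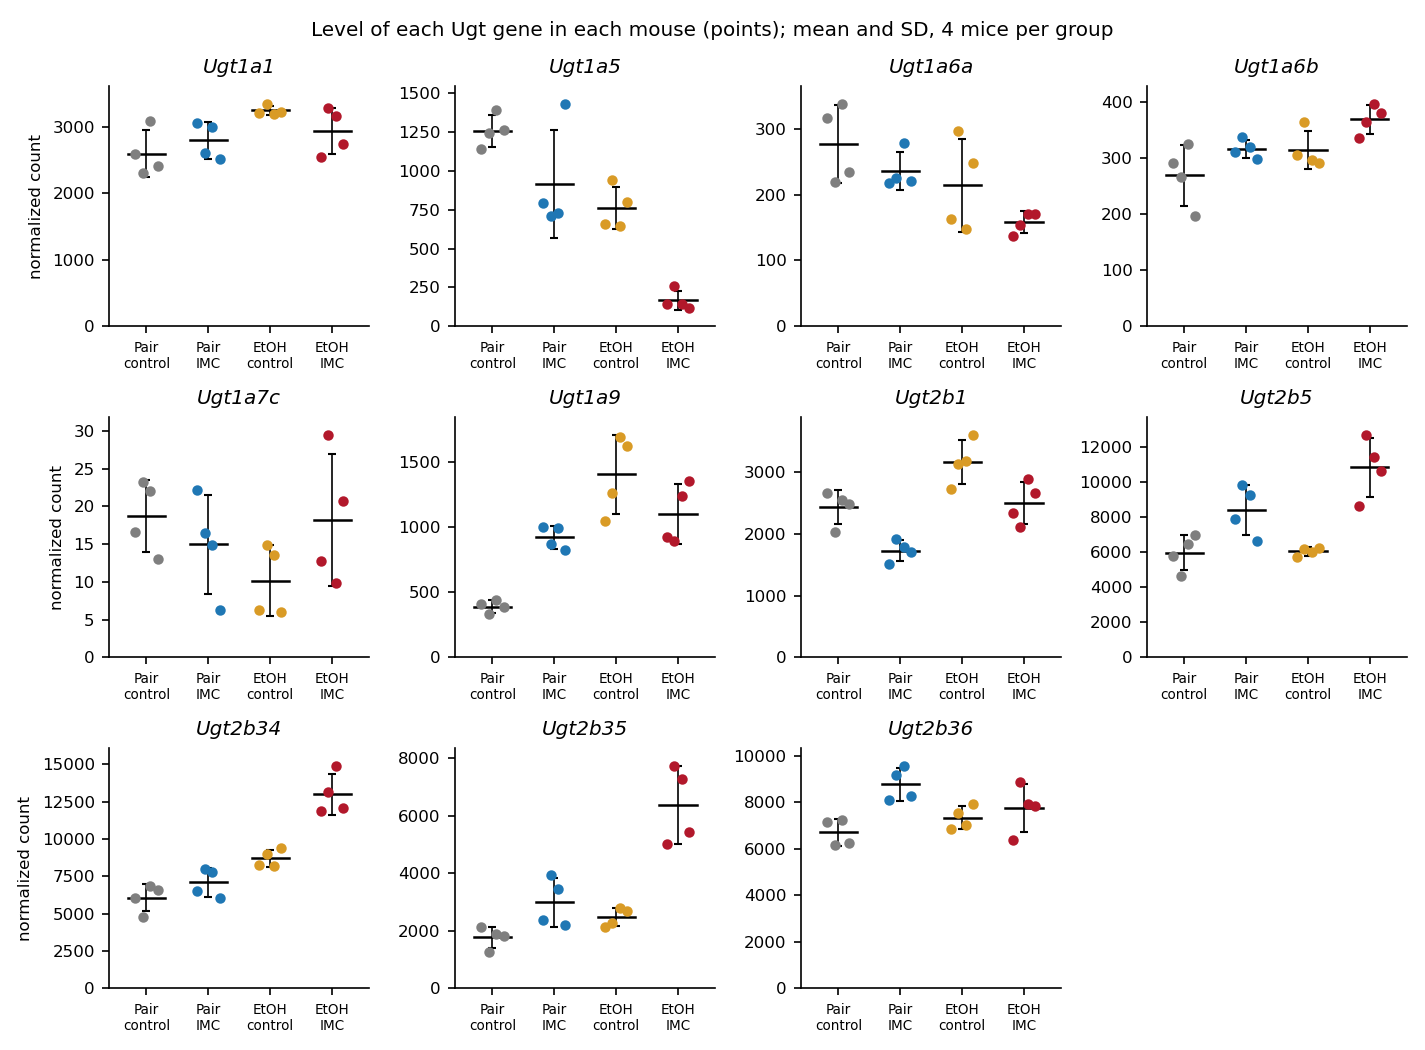
Normalized count (vertical axis, from 0) of each of the 11 Ugt genes in the 4 groups. Points are mice, horizontal lines the group mean and bars the SD of 4 mice. The 4 EtOH IMC mice lie below all others for Ugt1a5 and above all others for Ugt2b34 and Ugt2b35.

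IMC and ethanol were compared first for the Ugt1a genes. Ugt1a5 fell with IMC in ethanol-fed mice, to 0.214 times the control level, and Ugt1a9 rose with IMC in pair-fed mice, by 2.36-fold. Both were the members in which the IMC effect differed between the diets. The level of Ugt1a5 was 1140.3, 1243, 1391 and 1265 in the Pair control mice and 796, 709, 727 and 1432 in Pair IMC. A single Pair IMC mouse, library 8, was above all 4 control mice, and the other three were below them. The log2 fold change with IMC was -0.52 (SE 0.222, adjusted p = 0.148). Leaving out library 8 gave -0.76 (adjusted p = 0.0188). In ethanol-fed mice the level of Ugt1a5 was 658, 939, 647 and 802 in control and 146, 259, 145 and 118 with IMC. The groups lay far apart, and the log2 fold change was -2.23 (SE 0.222, adjusted p = 6.36e-06). The difference of the IMC effects between diets was -1.71 on the log2 scale (SE 0.314, adjusted p = 0.0135), and -1.47 without library 8.

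Ugt1a9 conjugates phenols and other small acceptors. Its level was 409, 329, 439 and 383 in Pair control and 999.9, 872, 989.9 and 822 in Pair IMC. Each Pair IMC mouse was above each Pair control mouse, with a log2 fold change of 1.24 (SE 0.155, adjusted p = 0.000177). In ethanol-fed mice its level was 1049.6, 1264, 1692 and 1619 in control and 923, 892, 1239 and 1355 with IMC. The ranges overlapped, and the log2 fold change was -0.35 (SE 0.155, adjusted p = 0.117), or -0.48 without library 1 (adjusted p = 0.0378). The difference of the IMC effects was -1.59 (SE 0.219, adjusted p = 0.00166). The mean of Ugt1a9 was highest in EtOH control, where the range overlapped that of EtOH IMC, and lowest in Pair control, where the range overlapped that of no other group. The groups with the early library numbers had the higher mean within each diet.

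In pair-fed mice Ugt1a1 was 2602 ± 349 without and 2799 ± 272 with IMC, and in ethanol-fed mice 3249 ± 68.0 without and 2938 ± 348 with IMC (SD, n = 4 each). No IMC contrast of Ugt1a1 passed the test. The level of Ugt1a6a was 277 ± 59.4, 235 ± 29.1, 214 ± 70.9 and 158 ± 16.4 in the same order of groups, and that of Ugt1a6b 269.7 ± 54.6, 317 ± 15.9, 315 ± 34.2 and 369.6 ± 26. Both are known for conjugating small planar phenols. Averaged over diets, Ugt1a6b rose with IMC by 0.24 on the log2 scale (SE 0.0877, adjusted p = 0.0459). That call was lost without any 1 of 11 libraries (2, 4 and 6 of Pair IMC, 12 and 16 of Pair control, 1, 5 and 7 of EtOH control, 11, 13 and 15 of EtOH IMC), with adjusted p-values of 0.0611 to 0.0867. Ugt1a6a did not pass for IMC averaged over diets (log2 fold change -0.30, adjusted p = 0.109), and passed without library 5 (-0.38, adjusted p = 0.0399). Ugt1a7c was low, between 6.01 and 29.5 normalized counts in the 16 mice, and passed no test.

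Among the Ugt2b genes, IMC raised Ugt2b35 and Ugt2b5 and lowered Ugt2b1 in both diets, and raised Ugt2b36 in pair-fed and Ugt2b34 in ethanol-fed mice. These genes act on steroids, bile acids and drugs. The level of Ugt2b35 was 2135, 1276, 1872 and 1833 in Pair control and 2372, 3949.5, 3443 and 2184 in Pair IMC. The lowest IMC mouse was just above the highest control mouse, and the log2 fold change was 0.73 (SE 0.192, adjusted p = 0.0246). In ethanol-fed mice Ugt2b35 was 2139, 2286, 2778 and 2677 in control and 5012, 7729.8, 7282 and 5432 with IMC. Here each IMC mouse was far above each control mouse, with a log2 fold change of 1.35 (SE 0.192, adjusted p = 0.000157).

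The level of Ugt2b5 was 5806, 4657, 6491 and 6965 in Pair control and 7871, 9856, 9286 and 6645 in Pair IMC. Library 8 of Pair IMC lay within the control range, and the log2 fold change was 0.49 (SE 0.141, adjusted p = 0.0362). In ethanol-fed mice Ugt2b5 was 5725, 6204, 5991 and 6259 in control and 8667, 12705, 11426 and 10622 with IMC. The 4 control mice were close together and all below the IMC mice, with a log2 fold change of 0.83 (SE 0.141, adjusted p = 0.000639).

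Ugt2b34 was 6073, 4775, 6859 and 6602 in Pair control and 6506, 8025, 7794 and 6084 in Pair IMC, with overlapping ranges and a log2 fold change of 0.23 (SE 0.121, adjusted p = 0.249). In ethanol-fed mice its level was 8263, 8969.6, 8214 and 9395 in control and 11893, 13126, 14909.6 and 12094 with IMC. All IMC mice were above all control mice, with a log2 fold change of 0.57 (SE 0.121, adjusted p = 0.00317). Ugt2b36 was 7163, 6181, 7246 and 6250.1 in Pair control and 8094, 9191, 9568 and 8258 in Pair IMC. The groups did not overlap, and the log2 fold change was 0.39 (SE 0.103, adjusted p = 0.0254). In ethanol-fed mice it was 7337 ± 496 in control and 7752 ± 1032 with IMC (adjusted p = 0.656).

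Ugt2b1 went the other way. It was 2662, 2031, 2543 and 2486 in Pair control and 1509.9, 1912, 1781 and 1701 in Pair IMC. The groups did not overlap, with a log2 fold change of -0.49 (SE 0.114, adjusted p = 0.0130). In ethanol-fed mice Ugt2b1 was 2729, 3127, 3183 and 3603 in control and 2337, 2116, 2890.3 and 2653 with IMC. The ranges overlapped in 1 pair of mice, and the log2 fold change was -0.34 (SE 0.114, adjusted p = 0.0394). Ugt2b1 lies between Ugt2b34 and Ugt2b35 on chromosome 5, both of which rose with IMC in ethanol-fed mice. The IMC effect of no Ugt2b gene was shown to differ between diets, where the adjusted p-values were 0.286 for Ugt2b35, 0.310 for Ugt2b36, 0.348 for Ugt2b34, 0.438 for Ugt2b5 and 0.711 for Ugt2b1.

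Counted over the 11 genes, 4 rose and 1 fell with IMC in pair-fed mice, where 9.49% of all genes tested passed (4.32% higher and 5.17% lower), and 4 did not overlap between groups, against 14.3% of all genes. In ethanol-fed mice 3 rose and 2 fell, where 21.5% of all genes passed (10.4% higher and 11.1% lower), and 4 did not overlap, against 25.3%. The difference of the IMC effects passed for 2 genes, both lower, against 1.11% of all genes (0.791% lower). Averaged over diets, 6 rose and 2 fell, against 28.2% of all genes. The median log2 fold change of the 11 genes was 0.23 in pair-fed mice, 0.07 in ethanol-fed mice and 0.23 averaged over diets, where that of all genes was between -0.01 and 0.00. All 5 Ugt2b genes and 3 of 6 Ugt1a genes passed averaged over diets, with log2 fold changes of 1.04 for Ugt2b35, 0.66 for Ugt2b5, 0.40 for Ugt2b34, 0.23 for Ugt2b36, -0.42 for Ugt2b1, 0.45 for Ugt1a9, 0.24 for Ugt1a6b and -1.37 for Ugt1a5. The averages of Ugt1a9 (1.24 in pair-fed and -0.35 in ethanol-fed mice) and Ugt1a5 (-0.52 and -2.23) join effects that differed between diets.

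Several calls in pair-fed mice were lost when any 1 of several libraries was left out. Only 2 of the 5 members passed without library 12 of Pair control, or without library 4 or 6 of Pair IMC. Of all genes tested, 1188 passed with all libraries, and 854, 537 and 543 without libraries 12, 4 and 6. The rise of Ugt2b5 was lost without library 10, 12, 2, 4 or 6 (adjusted p = 0.0540 to 0.121). That of Ugt2b35 was lost without 12, 4 or 6 (0.0773 to 0.0935) and that of Ugt2b36 without 12, 16, 4 or 6 (0.0573 to 0.0862). The log2 fold changes were then 0.38 to 0.52 for Ugt2b5, 0.58 to 0.65 for Ugt2b35 and 0.35 to 0.36 for Ugt2b36. In ethanol-fed mice the fall of Ugt2b1 was lost without library 3, 5, 7, 9 or 11 (0.0724 to 0.125). Averaged over diets, Ugt2b36 lost its call without library 4, 6, 1 or 11 (0.0510 to 0.0578). Over 12 other settings, the rise of Ugt2b5 in pair-fed mice passed in 9 and the fall of Ugt2b1 in ethanol-fed mice in 7. The calls of Ugt1a9 and Ugt2b1 in pair-fed mice, of Ugt1a5, Ugt2b35, Ugt2b5 and Ugt2b34 in ethanol-fed mice, and of both differences between diets held without any 1 of the 16 libraries.

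**Figure D3:**
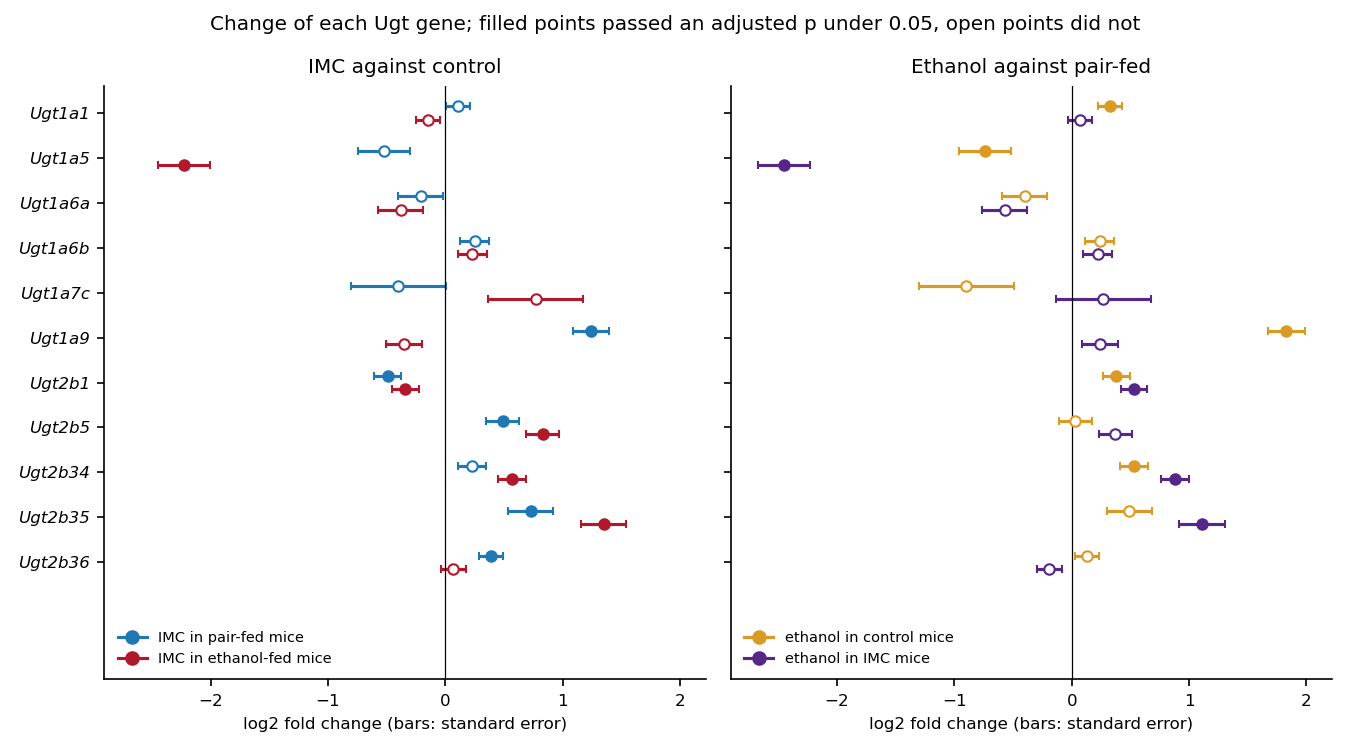
Log2 fold change (horizontal axis) with its standard error for the 11 Ugt genes, with IMC against control on the left and ethanol against pair feeding on the right. Filled points passed an adjusted p under 0.05. Ugt1a5 lies at -2.23 for IMC in ethanol-fed mice and Ugt1a9 at 1.83 for ethanol in control mice.

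Ethanol was then compared with pair feeding. Without IMC, ethanol raised Ugt1a9 by 3.55-fold, and Ugt2b34 by 1.44-fold, and lowered Ugt1a5 to 0.599 times. These comparisons share groups with those of IMC above and are not independent of them. The log2 fold change was 1.83 for Ugt1a9 (SE 0.155, adjusted p = 3.34e-06), with all EtOH control mice above all Pair control mice. It was 0.53 for Ugt2b34 (SE 0.121, adjusted p = 0.01), 0.38 for Ugt2b1 (SE 0.114, adjusted p = 0.0377), 0.33 for Ugt1a1 (SE 0.102, adjusted p = 0.0429) and -0.74 for Ugt1a5 (SE 0.222, adjusted p = 0.0377). In IMC mice Ugt1a5 fell by 2.45 on the log2 scale (SE 0.222, adjusted p = 2.75e-06), to 0.183 times the level of Pair IMC. Ugt2b35 rose by 1.11 (SE 0.192, adjusted p = 0.00112), Ugt2b34 by 0.88 (SE 0.121, adjusted p = 0.000220) and Ugt2b1 by 0.53 (SE 0.114, adjusted p = 0.00483). Ugt1a9 did not pass there (log2 fold change 0.24, adjusted p = 0.309), and neither did Ugt1a6a (-0.57, adjusted p = 0.0506), which passed without library 12, 14, 1, 3 or 5 (0.0303 to 0.0483). Ugt2b5 (0.37, adjusted p = 0.0815) passed without library 4 or 9 (0.0499 and 0.0352).

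Of the 11 genes, ethanol raised 4 and lowered 1 in control mice, where 11.9% of all genes passed (6.35% higher and 5.56% lower), and raised 3 and lowered 1 in IMC mice, where 16.5% passed (7.87% higher and 8.61% lower). Between groups 6 and 5 genes did not overlap, against 19.0% and 19.2% of all genes. Averaged over treatments 5 rose and 2 fell, against 26.1% of all genes. The median log2 fold change of the 11 genes was 0.24 in control mice, 0.24 in IMC mice and 0.20 averaged. The members that passed were Ugt1a9 at 1.04, Ugt2b35 at 0.80, Ugt2b34 at 0.70, Ugt2b1 at 0.45, Ugt1a1 at 0.20, Ugt1a6a at -0.49 and Ugt1a5 at -1.59. For Ugt1a9 the effects averaged were 1.83 in control and 0.24 in IMC mice, and for Ugt1a5 -0.74 and -2.45. Ugt1a1 was at the edge (adjusted p = 0.04998), and its call was lost without any 1 of 13 libraries, all but 14 of Pair control, 2 of Pair IMC and 9 of EtOH IMC (0.0507 to 0.0998). Ugt1a6b (0.23, adjusted p = 0.0612) passed without library 14 (0.0241).

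In control mice the ethanol calls of Ugt1a1, Ugt1a5 and Ugt2b1 were each lost without any 1 of 6 to 8 libraries, with adjusted p-values up to 0.114. For Ugt1a1 these were libraries 10, 12, 16, 6, 1, 3, 5 and 7, for Ugt1a5 10, 12, 14, 16, 1, 5 and 7, and for Ugt2b1 12, 14, 16, 3, 5 and 7. Those of Ugt1a9 and Ugt2b34 held without any 1 library. On the deposited values, which were scaled within each diet and lie 1.14 times higher in ethanol-fed libraries (0.19 on the log2 scale), ethanol raised 7 members and lowered 0 in control mice. It raised 6 and lowered 1 in IMC mice, and raised 7 and lowered 1 averaged over treatments. Of all genes called for ethanol in control mice, 93.3% were then higher, against 53.3% after rescaling, and in IMC mice 87.8% against 47.8%. Averaged over treatments the shares were 90.5% and 49.6%. Ugt1a5 kept its sign on that scale, at -0.55 in control mice (adjusted p = 0.0797).

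The summed Ugt1a count of pair-fed mice was 4817 ± 551 without and 5203 ± 288 with IMC, and that of ethanol-fed mice 5956 ± 387 without and 4754 ± 457 with IMC (SD, n = 4 each). Ugt1a5 made up 26.3% ± 2.27, 17.6% ± 6.34, 12.7% ± 1.79 and 3.52% ± 1.21 of it in the same order of groups, and Ugt1a9 8.10% ± 0.520, 17.7% ± 1.46, 23.5% ± 4.31 and 23.2% ± 4.28. Ugt1a1 made up 53.8% to 54.7% on average in the first 3 groups and 61.8% ± 3.50 in EtOH IMC. The summed Ugt2b count of pair-fed mice was 22976 ± 2749.6 without and 29007 ± 3991 with IMC, and that of ethanol-fed mice 27723 ± 1747 without and 40476 ± 4969 with IMC. Each EtOH IMC mouse, from 34273, was above each mouse of the other groups, up to 32934. In EtOH IMC the share of Ugt2b35 was 15.6% ± 1.53, against 7.69% ± 0.920 in Pair control, and that of Ugt2b1 6.23% ± 1.0 against 10.6% ± 0.452. Sums and shares are a description without a test.

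**Figure D4:**
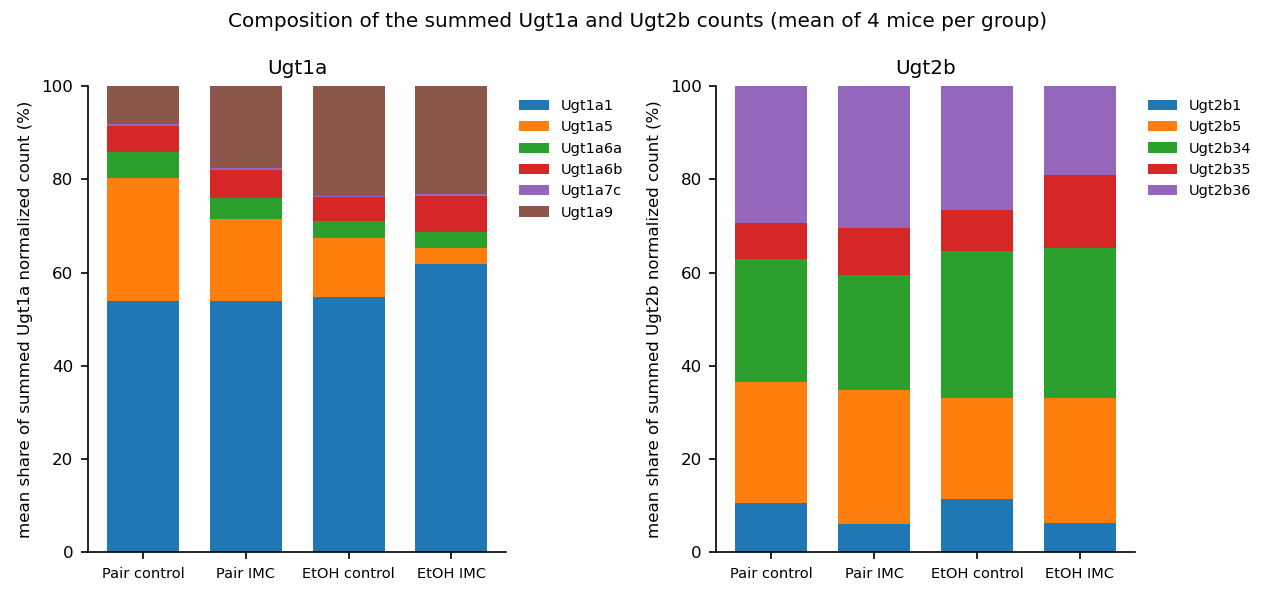
Mean share in percent (vertical axis, from 0 to 100) of each gene in the summed Ugt1a counts (left) and Ugt2b counts (right) of the 4 groups, with 4 mice each. Ugt1a5 takes 26.3% of the Ugt1a counts in Pair control and 3.52% in EtOH IMC.

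Across the 16 mice the log2 levels of Ugt2b5 and Ugt2b35 had a Pearson r of 0.92, those of Ugt2b34 and Ugt2b35 0.91 and those of Ugt2b5 and Ugt2b34 0.75. After the group means were subtracted the values were 0.85, 0.81 and 0.86. Ugt1a5 ran against Ugt2b34 (-0.89) and Ugt2b35 (-0.88) across mice, but at -0.12 and -0.13 within groups. Ugt1a5 and Ugt1a9, from the same cluster, had an r of -0.50 across mice and -0.41 within groups. The points are libraries of the same 4 groups, and the values are given without a test.

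Of 12 other UDP-glycosyltransferase genes listed, 11 were analysed here, of which 6 were tested, and 1 of these, Ugt1a7c, is also a member. None of the 6 rose with IMC, and 1 fell in pair-fed and 4 in ethanol-fed mice. In the same comparisons 5.17% and 11.1% of all genes tested fell. In pair-fed mice Ugt2a3 fell, by 0.70 on the log2 scale (SE 0.138, adjusted p = 0.00488), and in ethanol-fed mice it fell by 1.34 (SE 0.138, adjusted p = 8.76e-06), from 2987 ± 142 to 1211 ± 319. Ugt3a1, which uses UDP-N-acetylglucosamine as its sugar donor, was 693 ± 90.1 without and 686 ± 123 with IMC in pair-fed mice, and 776 ± 53.6 without and 294 ± 79.8 with IMC in ethanol-fed mice. Its IMC effect differed between diets by -1.40 (SE 0.222, adjusted p = 0.00639), with a fall of 1.43 in ethanol-fed mice (SE 0.157, adjusted p = 1.69e-05). Ugt3a2 fell by 0.45 with IMC in ethanol-fed mice (SE 0.0774, adjusted p = 0.000748). Its difference between diets, -0.48 (adjusted p = 0.0469), was lost without any 1 of 13 libraries, all but 10 of Pair control, 4 of Pair IMC and 11 of EtOH IMC (0.0602 to 0.0986). Ugt2b37 fell with IMC in ethanol-fed mice from 21.2 ± 11.1 to 5.56 ± 3.94 (log2 fold change -1.84, SE 0.427, adjusted p = 0.00569). With ethanol in control mice Ugt3a2 rose by 0.30 (adjusted p = 0.0199), which was lost without library 12 or 3 (0.0515 and 0.0631). In IMC mice Ugt2a3 and Ugt3a1 fell with ethanol, by 0.64 and 1.23. Ugt1a2 was 14.7 ± 3.48 in Pair IMC and 6.31 ± 3.73 in EtOH IMC (log2 fold change -1.23, adjusted p = 0.0406, lost without library 2, 4, 6, 8, 9 or 15 at 0.0519 to 0.127). It passed the filter on low values only through the Pair IMC mice, where it was highest, so this comparison had to lean towards a fall and is given as a description. Ugt1a10, Ugt8a and Ugt2b38 stayed below the filter on low values, with mean levels of 0.249 to 10.9, and Ugt2a1 and Ugt2a2 had 0 reads in each library, which allows up to 3 reads per library.

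Glucuronidation also needs UDP-glucuronic acid. Of 7 genes for its supply, 1 rose with IMC in pair-fed and 2 in ethanol-fed mice, and 0 fell. In the same comparisons 4.32% and 10.4% of all genes tested rose. Ugdh, which makes UDP-glucuronic acid from UDP-glucose, rose with IMC from 1529 ± 130.4 to 2837 ± 334 in pair-fed mice (log2 fold change 0.89, SE 0.132, adjusted p = 0.000760). In ethanol-fed mice it rose from 1544 ± 267 to 4119.9 ± 657 (log2 fold change 1.42, SE 0.132, adjusted p = 3.92e-06). With ethanol 1 of the 7 rose in control mice and 3 in IMC mice, where Ugp2, which makes UDP-glucose, rose by 0.66 (SE 0.134, adjusted p = 0.00327). Among all genes tested, 6.35% rose with ethanol in control and 7.87% in IMC mice. The rise of the transporter gene Slc35b4 in control mice (0.32, adjusted p = 0.0487) was lost without any 1 of 13 libraries (0.0533 to 0.144), all but 8 of Pair IMC, 4 of Pair IMC and 3 of EtOH control.

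Of 4 genes of bilirubin formation 0 passed limma with IMC in pair-fed mice (2 had an unadjusted p under 0.05) and 1 passed in ethanol-fed mice. Blvrb, a biliverdin reductase, rose with IMC in ethanol-fed mice by 0.76 (SE 0.122, adjusted p = 0.000402). With ethanol it rose by 0.47 in control mice (adjusted p = 0.0196, lost without library 12 or 7 at 0.0561 and 0.0626) and by 1.05 in IMC mice (SE 0.122, adjusted p = 4.71e-05), where 2 of the 4 genes rose. Of 8 transporters of glucuronides and bilirubin, 0 rose and 1 fell with IMC in pair-fed mice, and 2 rose and 2 fell in ethanol-fed mice. Abcc4, an exporter at the blood side of the hepatocyte, rose there from 230.1 ± 62.2 to 973 ± 384 (log2 fold change 2.03, SE 0.289, adjusted p = 0.000157), and the uptake transporter Slco1a4 fell by 0.76 (SE 0.158, adjusted p = 0.00279). With ethanol 3 rose and 0 fell in control mice and 3 rose and 1 fell in IMC mice, with Abcc4 up by 1.75 (SE 0.289, adjusted p = 0.00144) and 3.19 (SE 0.289, adjusted p = 2.75e-06) and Slco1a4 down by 0.72 in IMC mice (adjusted p = 0.00567). Of 5 tested genes of the route from glucuronate to ascorbate and of glucuronide cleavage, 1 rose with IMC in pair-fed mice, and 2 rose and 3 fell in ethanol-fed mice, where Rgn, the gluconolactonase of ascorbate synthesis, fell by 1.05 (SE 0.197, adjusted p = 0.00141). With ethanol, Gusb, the beta-glucuronidase that cleaves glucuronides, rose by 0.48 in control mice (adjusted p = 0.00872) and by 0.45 in IMC mice (adjusted p = 0.00891), where 3 of the 5 fell. The fall of Ces1e in IMC mice was 0.78 (adjusted p = 0.00206). For comparison, 9.49% and 21.5% of all genes tested passed with IMC in pair-fed and ethanol-fed mice. With ethanol the shares were 11.9% and 16.5% in control and IMC mice.

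**Figure D5:**
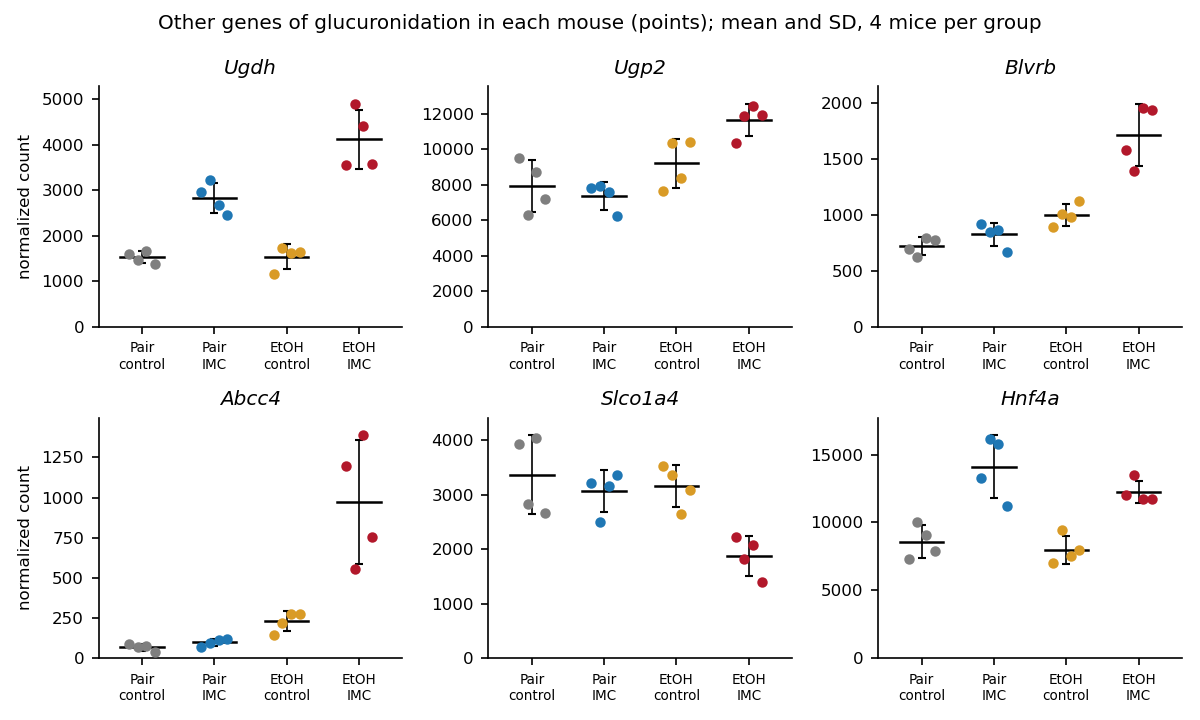
Normalized count (vertical axis, from 0) of 6 other genes around glucuronidation in the 4 groups, with points for mice, lines for means and bars for the SD of 4 mice. Ugdh lies above the control mice of the same diet in all 8 IMC mice, and Abcc4 is highest in EtOH IMC.

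Nuclear receptors and other factors are reported to control Ugt genes. Of 14 such factors, 1 rose and 1 fell with IMC in pair-fed mice and 3 rose and 1 fell in ethanol-fed mice. In these comparisons 9.49% and 21.5% of all genes tested passed, and whether the list differs from them was not tested. Hnf4a, a factor of hepatocyte identity, rose by 0.71 (SE 0.130, adjusted p = 0.00322) and 0.62 (SE 0.130, adjusted p = 0.00298). Foxa2 fell by 0.74 in pair-fed mice (adjusted p = 0.0361) and Ppara by 0.50 in ethanol-fed mice (adjusted p = 0.0199). The first was lost without any 1 of libraries 10, 12, 16, 2, 4, 6 and 8 (0.0544 to 0.1), and the other without library 5, 7 or 15 (0.0503 to 0.0661). With ethanol 0 rose and 3 fell in control mice, among them Nr1h4, the bile acid receptor FXR, by 0.50 (adjusted p = 0.0102). In IMC mice 1 rose and 2 fell, with Foxa2 up by 0.81 (adjusted p = 0.0149) and Nr1i3, the receptor CAR, down by 0.66 (adjusted p = 0.0106). Among all genes tested, 11.9% passed with ethanol in control and 16.5% in IMC mice.

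Genes that commonly report the activity of such factors were given beside the members. Of 6 indicator genes of NRF2, 2 rose with IMC in pair-fed and 6 in ethanol-fed mice, with Gclc up by 0.91 in pair-fed mice (adjusted p = 0.00498) and Gsta1 by 3.25 in ethanol-fed mice (adjusted p = 0.00156). With ethanol 2 rose in control mice, Srxn1 by 1.0 (adjusted p = 0.00156), and 4 in IMC mice, Gsta1 by 3.50 (adjusted p = 0.00130). Of 6 indicator genes of CAR and PXR, 0 rose and 1 fell with IMC in pair-fed mice and 1 rose and 3 fell in ethanol-fed mice. Cyp2b13 fell in both, by 0.86 (adjusted p = 0.0199, lost without library 10 or 4 at 0.0602 and 0.0731) and by 1.78 (adjusted p = 3.93e-05). With ethanol 4 rose in control mice and 2 in IMC mice, with Cyp2b10 up by 5.75 (adjusted p = 1.40e-07) and 6.15 (adjusted p = 2.26e-08). Cyp2b10 did not pass with IMC in either diet. It was 68.7 ± 13.9 without and 56.6 ± 18.6 with IMC in pair-fed mice, and 3913 ± 1681 and 4469 ± 2128 in ethanol-fed mice. Of 6 indicator genes of PPARA, 2 rose with IMC in pair-fed and 0 in ethanol-fed mice (1 of the 6 had an unadjusted p under 0.05), with Cyp4a14 up in pair-fed mice by 1.24 (adjusted p = 0.0166, lost without library 12, 4 or 6 at 0.0507 to 0.0578), and with ethanol 0 passed in control mice and 1, Ehhadh, fell in IMC mice by 0.81 (adjusted p = 0.00998). Of 4 tested indicator genes of AHR 0 passed with IMC in either diet (of the 4, Cyp1a2 alone had an unadjusted p under 0.05, in pair-fed mice) and 0 with ethanol in control mice, and Cyp1a2 rose with ethanol in IMC mice by 2.05 (adjusted p = 0.000830). The median log2 change with IMC in ethanol-fed mice, where that of all genes was -0.00, was 1.03 for the NRF2 list, 0.47 for AHR, 0.38 for bilirubin formation, 0.23 for UDP-glucuronic acid supply, 0.18 for transport, 0.01 for PPARA, -0.00 for the factors, -0.28 for CAR and PXR, -0.39 for the glucuronate route and -0.89 for the other Ugt genes. In pair-fed mice the medians of these lists lay between -0.21 and 0.38. Beside the counts of these lists, 9.49% and 21.5% of all genes tested passed with IMC in pair-fed and ethanol-fed mice. With ethanol the shares were 11.9% and 16.5% in control and IMC mice. Whether any of these factors took part in the changes of the Ugt genes was not tested.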

How the data were processed

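Liver RNA of 16 mice was sequenced with a stranded mRNA kit. Per the study's methods the authors trimmed reads with Trim Galore 0.3.3 and aligned them with STAR 2.5.2a to mm10. The counting tool is not given in the sources used here, and the reads are described as single-end in the methods and as paired-end per the labels. The deposited values (unit signal) are counts of reads over a library-wise size factor, with the factors set separately in each diet. In 15 libraries all values lay within 0.01 of whole multiples of the value of 1 read; in library 15 of EtOH IMC that value is 1.01, too near 1 for the same check. Rows were reduced to 1 per Ensembl ID (24082 of 27212 rows). No replicate pair agreed within sampling noise (chi-square 5.6 to 44.0 per gene over 24 pairs).

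The 16 columns were rescaled by a median ratio over 13121 genes. Genes that reached 10 in 4 or more libraries were tested on log2(value + 1) with limma 3.58.1 in R 4.3.3, with 4 group means and a trend of variance on level (two-sided, Benjamini-Hochberg adjusted). Fold changes are on that scale and understate those of low genes. SEs are of the log2 fold change. The p-values set the difference of the group means against a moderated estimate of the spread between mice, shared by the 4 groups. Mice were treated as independent, though the study recorded diet intake by cage. Reads carry no molecular identifiers, so the limit set by 0 reads covers counting error only. Alternatives were the deposited scale, quantile normalization, pseudocounts of 0.1 and 5, no filter, a mean of at least 100, only the libraries compared, no trend, edgeR 4.0.16 (TMM, upper quartile, and without library 15) and DESeq2 1.42.0 on recovered reads, and each library left out. For genes outside the members these were added after seeing the data.

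The members, the 10 pathway lists and the 11 marker lists were chosen with earlier results of these data known. Named genes are the members, all other UDP-glycosyltransferase genes, the largest rise and fall of each list among genes that passed without overlap, and the gene nearest each member by Pearson r (for Ugt2b36 not reported here). Other members of the lists, such as Cyp1a2 in pair-fed mice, Cpa1, Pnlip, Cel and Cdx2, were named after their values were seen. The tests were tried on simulated data in which all genes had the same dispersion. That setting is simpler than these data, and no result given here rests on it. Positions are from GENCODE vM21, and promoters from RefSeq, both on GRCm38.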

Additional observations from a re-analysis of the deposited data

Results flagged for a closer look

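The IMC effect differed between ethanol-fed and pair-fed mice, by the test of the difference itself, for Ugt1a5 (-1.71 on the log2 scale, adjusted p = 0.0135), Ugt1a9 (-1.59, adjusted p = 0.00166), Ugt3a1 (-1.40, adjusted p = 0.00639) and Ugt3a2 (-0.48, adjusted p = 0.0469). These differences cannot be told apart from the early and late library numbers.

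Single mice stood apart from the other three of their group by Dixon's ratio in 4 of 64 groups examined, and chance flags about 1 in 20 groups. Ugt1a5 was 1432 in library 8 of Pair IMC, where the others were 709 to 796. Ugt1a6a was 279 in library 6 of Pair IMC, where the others were 218 to 225. Ugt2a3 was 2547 in library 12 of Pair control, where the others were 3154 to 3202. Ugt1a2 was 4.01 in library 7 of EtOH control, where the others were 8.02 to 8.5.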

How the results depend on the processing

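No paired analysis was possible because the labels do not say which pair-fed mice belong to which ethanol-fed mice. Over the members, leaving out 1 library kept the direction and the side of the threshold in 1144 of 1232 values. The other alternatives kept them in 835 of 884. Members that did not pass are counted too. Within a diet or a treatment, leaving out a library of a group not compared cannot move the fold change. It can change only the shared estimate of the spread and the adjustment, so such values could hardly differ. The number of members called with each library left out ranged from 2 to 6 for IMC in pair-fed mice, 4 to 6 in ethanol-fed mice, 2 to 2 for the difference, 6 to 8 for IMC averaged, 2 to 5 for ethanol in control mice, 4 to 5 in IMC mice and 6 to 8 for ethanol averaged. With only the libraries compared, 3 members passed for IMC in pair-fed mice instead of 5. Without the filter, and without the trend, 2 passed for ethanol in control mice instead of 5, and on the deposited values 7 passed for ethanol in IMC mice instead of 4. The cause was not tested, but the deposited values hold a shift of 0.19 (log2) between diets.

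Values near 0 changed sign, none of them called in the analysis reported. The difference of IMC effects of Ugt1a6b (-0.02) became 0.00 with edgeR and TMM, 0.01 with upper quartiles, and 0.13, 0.01, 0.05 and 0.03 without libraries 16, 4, 3 and 9 (range -0.12 to 0.13), and that of Ugt1a6a (-0.17) became 0.01 without library 3 (-0.32 to 0.01). IMC averaged of Ugt1a1 (-0.02) became 0.04 with quantile normalization and 0.02, 0.00 and 0.01 without libraries 14, 8 and 9. Ethanol in control mice of Ugt2b5 (0.03) became -0.05 with quantile normalization and -0.08 without library 12 (-0.08 to 0.11). Ethanol in IMC mice of Ugt1a7c (0.27) became -0.07 without library 8 (-0.07 to 0.51), and that of Ugt2b36 (-0.19) became 0.01 on the deposited values. Ethanol averaged of Ugt2b36 (-0.03) became 0.16 on the deposited values, 0.00 with upper quartiles and 0.02 without library 9 (-0.06 to 0.02). Ugt1a7c, with 5 to 35 reads per library, was called in no comparison, and the part of depth in this was not tested.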

Other observations

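The tested gene outside the family whose log2 level ran most closely with a member over the 16 libraries was Fads1 for Ugt1a5 (Pearson r = 0.97, and 0.83 after the group means were subtracted), Htatip2 for Ugt2b5 (0.96 and 0.85), Pgpep1 for Ugt2b1 (0.95 and 0.77), Blvrb for Ugt2b34 (0.95 and 0.60) and Gstp1 for Ugt2b35 (0.93 and 0.46). It was 9130409I23Rik for Ugt1a9 (0.93 and 0.68), Nr1d1 for Ugt1a6a (0.88 and 0.72), Ctse for Ugt1a7c (0.88 and 0.86), Scamp3 for Ugt1a6b (0.87 and 0.81) and Slc39a4 for Ugt1a1 (0.84 and 0.68). Each is the highest of all genes tested, and the libraries share 4 groups, so the values are a description without a test. Fads1 encodes a fatty acid desaturase, Gstp1 a glutathione transferase and Nr1d1 a circadian nuclear receptor.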
